A study of Mus musculus with 32 samples.

Results

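The comparison described here is knockdown of Pou5f1, the gene of the transcription factor Oct4, against empty vector in mouse embryonic stem (ES) cells. It rests on 9 of the 32 arrays of the series, 4 from cells given Pou5f1 RNAi and 5 from cells given the parental vector, chosen by their titles and not by any measured value. All 45037 probe sets of the Affymetrix mouse arrays that are not control probe sets were compared, and 18193 genes carried a name of their own on at least 1 of them. The cells of both groups are E14TG2a, an established mouse ES cell line, transfected by lipofection with a construct for RNAi against Pou5f1 or with the empty parental plasmid, pSUPER-puro, from which short hairpin RNAs can be expressed. From 24 h after transfection both groups were kept in 1 µg/ml puromycin for 3 days, which selects for cells that carry the plasmid, and total RNA was then extracted. The labels give neither the number of RNAi sequences nor their target sites, and off-target effects were not tested. The labels number the replicates but do not say whether they came from separate transfections. The p-values therefore measure the spread between arrays of the same group, which may be technical. Another 5 arrays hold Nanog RNAi cells, and 18 two-colour arrays set cells treated with 1 of 3 differentiating chemicals against untreated E14 cells.

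Oct4 is a POU-domain transcription factor of the inner cell mass, the epiblast, the germ line and ES cells, where it binds an octamer word in DNA, often beside Sox2. In the mouse blastocyst the outer cells lose Oct4, express Cdx2 and Gata3 and become trophectoderm, the polarised epithelium that later builds the trophoblast of the placenta. Oct4 and Cdx2 repress each other, and ES cells deprived of Oct4 are known to turn into trophoblast-like cells. Trophoblast stem cells depend on FGF4, which in the embryo is made by the neighbouring epiblast.

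Levels below are the deposited RMA values, a log2 scale on which a difference of 1 is a 2-fold change. Changes are Pou5f1 RNAi minus vector ± the standard error from limma, fitted over all 14 RNAi arrays, and "rose", "fell" and "called" mean a Benjamini-Hochberg adjusted p under 0.05 over all probe sets. Standard errors and p-values thus also carry the spread of the Nanog RNAi arrays. Arrays of the same group correlated at 0.990 to 0.997 over all probe sets, and Pou5f1 RNAi arrays correlated with vector arrays at 0.959 to 0.968. The main axis of variation held 61.4% of the variance and placed the 4 Pou5f1 RNAi arrays at 71.2 to 81.2, against -39.3 to -32.1 for the 5 vector arrays. Array medians lay between 4.57 and 4.66. No detection call was used here, so for levels near or below that median it is not known whether the probe set lies above background. RNA came from whole cultures, in which fewer cells of a type and less RNA per cell cannot be told apart.

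Pou5f1 fell in every array of its knockdown. Its single probe set, for the gene on chromosome 17, read 9.19, 9.21, 8.73 and 9.01 in Pou5f1 RNAi cells, against 11.34, 11.31, 11.46, 11.51 and 11.48 in vector cells. The change of -2.38 ± 0.10 is 5.22-fold and the groups were more than 2 log2 apart at their nearest arrays (adjusted p = 1.12e-13). Sox2, the usual partner of Oct4 on DNA, read 9.85, 9.88, 9.75 and 9.56 in Pou5f1 RNAi cells, against 11.54, 11.35, 11.40, 11.63 and 11.47 in vector cells, a change of -1.72 ± 0.08. Nanog, a homeobox factor of the same network, read 9.82, 9.75, 9.57 and 9.64 in Pou5f1 RNAi cells, against 11.003, 11.05, 11.06, 11.19 and 11.16 in vector cells, a change of -1.40 ± 0.09. None of these 3 genes overlapped between the groups, as was true of 27.8% of all probe sets.

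**Figure D1:**
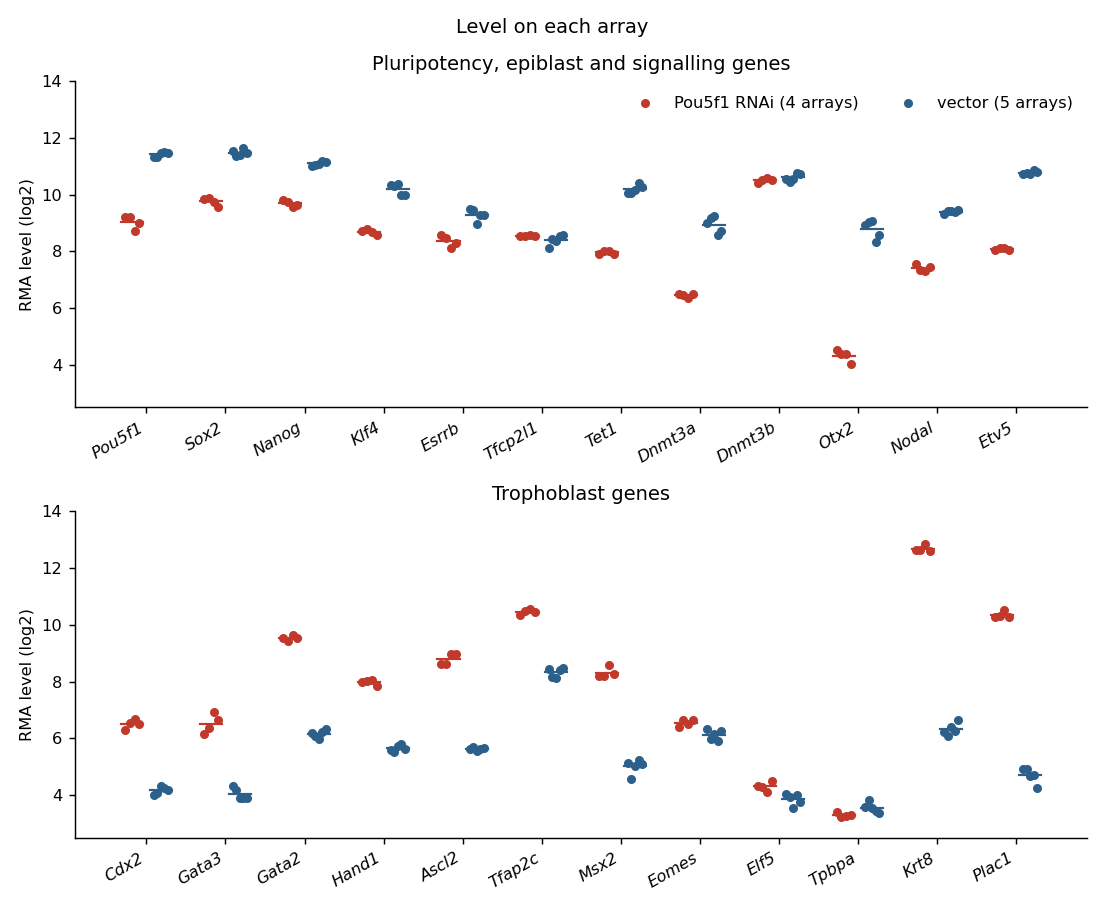
RMA level in log2 (y axis) of 12 pluripotency, epiblast and signalling genes (top) and 12 trophoblast genes (bottom) on each array, Pou5f1 RNAi in red to the left of vector in blue; bars are group means. Otx2 lies at 4.04 to 4.51 on the 4 Pou5f1 RNAi arrays, against 8.33 to 9.06 on the 5 vector arrays, and Krt8 at 12.60 to 12.84, against 6.10 to 6.63, whereas Tfcp2l1, Dnmt3b and Tpbpa lie close together in both groups.

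The knockdown moved much of the transcriptome, and the large changes were mostly rises. Of the 45037 probe sets 14240 were called in either direction, which is 31.6%, and in 27.8% the 4 arrays did not overlap the 5. With each gene represented by its probe set of highest mean, 20.6% of the genes rose and 19.5% fell, so these shares are the background for every gene list below. Rises outnumbered falls more strongly with size. A change of at least 1 log2 was called for 964 genes upwards and 567 downwards, one of at least 3 log2 for 79 and 19, and one of at least 5 log2 for 15 and 0. The 237 genes that rose by at least 2 log2 had a median level of 8.73 in Pou5f1 RNAi cells, against 5.90 in vector cells. The 94 genes that fell by as much had a median level of 5.90 in Pou5f1 RNAi cells, against 8.37 in vector cells. Among 9010 genes with more than 1 probe set, 121 had probe sets called in opposite directions, and 0 of these by at least 1 log2 each way.

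The 10 largest rises included genes of placenta, simple epithelium and fetal growth. Rhox6, an X-linked homeobox gene of placenta and germ line, read 12.69, 12.56, 12.83 and 12.70 in Pou5f1 RNAi cells, against 5.19, 5.50, 5.57, 5.13 and 5.67 in vector cells, a 156-fold change. Rhox9, its neighbour in the same homeobox cluster, read 11.14, 11.02, 11.46 and 11.42 in Pou5f1 RNAi cells, against 4.92, 5.55, 5.26, 5.00 and 5.42 in vector cells. Igf2, the imprinted fetal growth factor, read 12.23, 12.35, 12.29 and 12.06 in Pou5f1 RNAi cells, against 5.98, 5.87, 6.03, 5.83 and 5.88 in vector cells. All 3 genes had every Pou5f1 RNAi array at least 5 log2 above every vector array.

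The keratins 8, 18 and 7, which pair into the intermediate filaments of simple epithelia, were also among the 10. Krt8 read 12.64, 12.62, 12.84 and 12.60 in Pou5f1 RNAi cells, against 6.21, 6.10, 6.41, 6.27 and 6.63 in vector cells. Krt18, its filament partner, read 13.04, 13.04, 13.03 and 13.04 in Pou5f1 RNAi cells, against 7.06, 7.20, 7.03, 6.88 and 7.52 in vector cells. Krt7 read 10.26, 10.08, 10.46 and 10.55 in Pou5f1 RNAi cells, against 4.24, 4.03, 4.23, 4.21 and 4.24 in vector cells. The spread of Krt18 within the knockdown arrays was far smaller than within the vector arrays. Saturation of its probe set was not tested, and if it was saturated the change of Krt18 is a lower bound.

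The other 4 of the 10 include a pair of placental genes on the X chromosome. Nrk, a kinase that restrains trophoblast growth in the mouse, read 11.37, 11.52, 11.33 and 11.24 in Pou5f1 RNAi cells, against 5.62, 5.55, 6.08, 5.04 and 5.37 in vector cells. Plac1, a trophoblast membrane protein, read 10.28, 10.30, 10.52 and 10.26 in Pou5f1 RNAi cells, against 4.93, 4.93, 4.67, 4.69 and 4.25 in vector cells. Pmp22, a membrane protein first known from peripheral myelin, read 9.75, 9.60, 10.03 and 9.89 in Pou5f1 RNAi cells, against 4.40, 4.25, 4.15, 4.32 and 4.27 in vector cells. Mbnl3, an X-linked RNA-binding splicing regulator, read 10.41, 10.33, 10.69 and 10.30 in Pou5f1 RNAi cells, against 4.70, 5.06, 5.11, 4.79 and 5.15 in vector cells. The vector levels of these 4 genes lay between 4.15 and 6.08.

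Ranks 11 to 30 of the rises were led by more epithelial, contractile and placental genes. Sbsn, an epithelial secreted protein, rose by 5.46 ± 0.11, and Ldoc1, an X-linked gene derived from a retrotransposon and active in placenta, rose by 5.44 ± 0.14. The actin-binding protein genes Tagln (5.43 ± 0.10), Gsn (4.89 ± 0.15) and Cald1 (4.01 ± 0.15) were among them, with Acta1, an actin (4.21 ± 0.09). Krt19 (5.42 ± 0.13), another simple-epithelial keratin, and Dsp (4.20 ± 0.15), the desmosomal plaque protein, also belonged here. So did Vgll3 (4.88 ± 0.09), a cofactor of TEAD factors, the annexin genes Anxa3 (4.66 ± 0.12) and Anxa1 (4.45 ± 0.12), and Jun (4.18 ± 0.13), a subunit of the AP-1 transcription factor. The imprinted genes Peg10 (4.40 ± 0.26), which the mouse placenta requires, and Cdkn1c (4.04 ± 0.09), a cyclin-dependent kinase inhibitor, were also among the 30. Tinagl1 (4.16 ± 0.13), Rhob (4.06 ± 0.10), Slc25a24 (4.43 ± 0.12), Vnn1 (4.27 ± 0.11), Afap1l2 (3.97 ± 0.12) and Cryab (3.97 ± 0.18) complete the set. For none of the 60 genes with the largest changes was another probe set of the gene called in the opposite direction. Some of the 60 had probe sets that were not called. The probe sets called in the same direction were 1 of 2 for Anxa1, 1 of 2 for Enox1 and 3 of 5 for Enpp3.

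Most trophoblast transcription factors rose. Of 21 measured, 17 rose and 1 fell, with a median change of 2.00, against a median of -0.04 over all genes. Cdx2, the factor that sets up trophectoderm, read 6.29, 6.55, 6.68 and 6.51 in Pou5f1 RNAi cells, against 4.01, 4.06, 4.32, 4.25 and 4.17 in vector cells (2.34 ± 0.11). Gata3, which acts beside Cdx2, read 6.15, 6.35, 6.92 and 6.65 in Pou5f1 RNAi cells, against 4.32, 4.17, 3.89, 3.89 and 3.90 in vector cells (2.48 ± 0.19). Gata2, which later drives trophoblast giant cell genes, read 9.55, 9.42, 9.63 and 9.53 in Pou5f1 RNAi cells, against 6.20, 6.07, 5.97, 6.22 and 6.33 in vector cells (3.37 ± 0.14). In all 3 genes the groups were separated by well over their internal range.

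Factors that act in different trophoblast branches rose together. Hand1, required for giant cells, read 7.98, 8.01, 8.05 and 7.85 in Pou5f1 RNAi cells, against 5.60, 5.51, 5.73, 5.81 and 5.62 in vector cells. Ascl2, an imprinted factor of the spongiotrophoblast, read 8.63, 8.61, 8.97 and 8.98 in Pou5f1 RNAi cells, against 5.62, 5.68, 5.56, 5.62 and 5.65 in vector cells. Tfap2c, an AP-2 factor needed in trophoblast, read 10.36, 10.47, 10.57 and 10.44 in Pou5f1 RNAi cells, against 8.43, 8.16, 8.14, 8.40 and 8.49 in vector cells. Msx2 (3.31 ± 0.14), Klf6 (3.01 ± 0.15), Esx1 (2.96 ± 0.12), Ets2 (2.01 ± 0.11), Cited1 (2.00 ± 0.12) and Arid3a (1.97 ± 0.09) were the other members above 1 log2. The smaller rises included Tead4 (0.79 ± 0.11), the TEAD factor upstream of Cdx2 in the embryo, and Dlx3 (0.77 ± 0.10).

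Eomes and Elf5, a pair of factors of trophoblast stem cells, moved less than Cdx2, Tfap2c or Ets2, which act in the same cells. Eomes read 6.39, 6.66, 6.49 and 6.63 in Pou5f1 RNAi cells, against 6.32, 5.97, 6.14, 5.92 and 6.24 in vector cells, a change of 0.42 ± 0.10 with the nearest arrays almost touching. Elf5 read 4.32, 4.30, 4.11 and 4.49 in Pou5f1 RNAi cells, against 4.03, 3.93, 3.55, 3.98 and 3.75 in vector cells, a change of 0.46 ± 0.11 on levels below the array median. Both were called and neither overlapped, but each change was smaller than that of the 12 factors of this list that rose by at least 1 log2. Tfap2a (0.13 ± 0.09), Ovol2 (0.22 ± 0.11) and Tfeb (0.25 ± 0.12) did not pass, and Hopx, a homeodomain-only protein, fell by 0.41 ± 0.10.

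Of 12 trophoblast markers listed, 11 were measured, 10 rose and 1 fell, with a median change of 2.34. The list was chosen with earlier results of these data known, and Krt7, Krt8, Krt18 and Plac1 in it are among the 10 largest rises. It is therefore no independent check of the cell type. Their mean level over the 11 genes was 8.33 to 8.48 across Pou5f1 RNAi arrays, against 5.31 to 5.40 across vector arrays. The marker that fell was Tpbpa, a spongiotrophoblast product, at 3.39, 3.24, 3.25 and 3.31 in Pou5f1 RNAi cells and 3.58, 3.83, 3.56, 3.45 and 3.37 in vector cells. These groups overlap, the levels lie below the array median, and the call (-0.26 ± 0.09, adjusted p = 0.0274) is lost without vector replicate 2 (adjusted p = 0.0795) or without any of 3 of the Pou5f1 RNAi arrays (adjusted p = 0.0519 to 0.0781).

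The measured hormone genes of the mature placenta were not among those that rose. The list names 37 genes, of which 8 were not analysed here, among them the placental lactogens Prl3d1 and Prl3b1 and the proliferins Prl2c2 and Prl2c3. Of 29 measured genes for placental hormones and secreted proteins, 5 rose, a share close to the background, and 1 fell, and 19 lay below the array median in both groups. The 23 that did not pass hold all measured prolactin-family, Psg, Ceacam and placental cathepsin genes of the list, with changes between -0.15 (Psg28) and 0.14 (Prl7d1). The 5 that rose were Nrk, Plac1, Tinagl1, Afap1l2 and Plet1, none of which encodes a hormone. Tinagl1 is a secreted matrix protein, Afap1l2 an adaptor protein, and Plet1 a surface protein of placental progenitors, which rose by 3.61 ± 0.11. Steroid hormone synthesis had 2 of 7 higher and 2 lower, and Cyp11a1, the side-chain cleavage enzyme, fell by 0.99 ± 0.14.

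**Figure D2:**
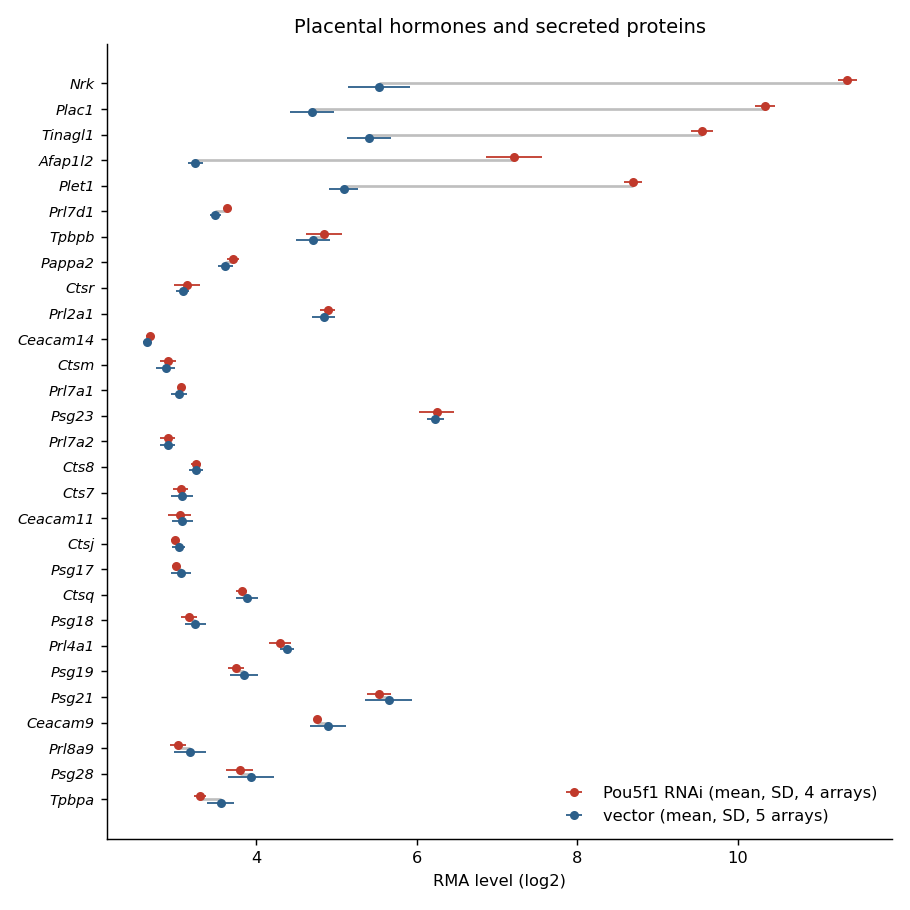
Mean RMA level in log2 (x axis) ± SD of 29 genes for placental hormones and secreted proteins, Pou5f1 RNAi in red above vector in blue for each gene. The upper 5 genes, Nrk to Plet1, are 3.61 to 5.84 higher after Pou5f1 RNAi, and the other 24 differ by -0.26 to 0.14.

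Of 20 measured growth signals of trophoblast, 10 rose and 4 fell, with ligands and receptors in both directions. Fgfr2, the receptor through which FGF4 keeps trophoblast stem cells dividing, read 8.17, 8.11, 8.41 and 8.06 in Pou5f1 RNAi cells, against 6.77, 6.60, 6.72, 6.81 and 6.60 in vector cells (1.49 ± 0.08). Wnt7b, a ligand that the mouse chorion needs, read 8.66, 8.82, 8.99 and 8.93 in Pou5f1 RNAi cells, against 6.75, 6.93, 6.74, 7.05 and 6.74 in vector cells (2.01 ± 0.09). Met (1.85 ± 0.13), the HGF receptor, Pdgfa (1.84 ± 0.09), Errfi1 (1.79 ± 0.12), an inhibitor of EGF receptors, and Bmp8b (1.58 ± 0.08) also rose. The groups did not overlap for 14 of the 20 genes, these 6 among them, against 6557 of all 18193 genes. Lifr, the LIF receptor chain, fell (-2.11 ± 0.07), as did Fzd5 (-1.27 ± 0.08), Pcsk6 (-0.51 ± 0.08) and Bmp4 (-0.37 ± 0.08). Vegfa (0.15 ± 0.10), Pgf (-0.12 ± 0.08) and Igf2r (-0.32 ± 0.15), the receptor that clears Igf2, did not pass.

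All 4 measured Rhox genes rose, by 0.96 ± 0.09 for Rhox5 up to 7.29 ± 0.15 for Rhox6. The other 9 genes of that list were not analysed here. Rhox5 is the member that ES cells already express, and its mean was 11.09 in Pou5f1 RNAi cells and 10.13 in vector cells. Genes on the X chromosome were frequent among the large changes in both directions. Of 617 X-linked genes 3.24% rose by at least 2 log2, against 0.693% to 1.80% on the autosomes, and 2.11% fell by as much, against 0.0892% to 0.873%. Of all X-linked genes 26.9% rose, against 14.7% to 23.8% on the autosomes, and 18.6% fell, against 16.9% to 24.5%. These counts were made after the largest changes had been seen.

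Epithelial structure genes rose in most cases. Of 31 keratin and cell junction genes 25 rose and 1 fell, with a median change of 1.35. Cldn4, a tight junction claudin, read 10.08, 9.92, 10.03 and 9.97 in Pou5f1 RNAi cells, against 6.65, 6.50, 6.60, 6.28 and 6.37 in vector cells (3.52 ± 0.10). Cldn7 (3.34 ± 0.10), Cldn6 (1.62 ± 0.13) and Cldn3 (1.35 ± 0.11) rose as well, as did the tight junction scaffold Tjp1 (1.08 ± 0.07) and the tricellular protein Marveld2 (2.66 ± 0.10). Desmosomes were represented by Dsp, Dsc2 (2.78 ± 0.13), Dsg2 (1.45 ± 0.10) and Pkp2 (1.18 ± 0.11), and apical polarity by Pard6b (2.44 ± 0.11). Connexins went both ways, Gjb5 (2.61 ± 0.13) and Gjb2 (1.78 ± 0.13) higher and Gja1, the main connexin of ES cells, lower (-0.50 ± 0.08). Cdh1, the gene of E-cadherin, which ES cells already carry, read 10.69, 10.72, 10.87 and 10.48 in Pou5f1 RNAi cells, against 10.33, 10.03, 10.34, 10.40 and 10.17 in vector cells (0.44 ± 0.09), and Epcam (0.14 ± 0.08), Cdh3 (-0.02 ± 0.10) and Ocln (0.02 ± 0.10) did not pass.

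The actin cytoskeleton list was as one-sided. Of 29 genes 25 rose and 1 fell, with a median change of 1.62, and 20 rose by at least 1 log2. Tpm1, a tropomyosin of stress fibres, read 11.84, 11.71, 11.97 and 11.86 in Pou5f1 RNAi cells, against 8.49, 8.57, 8.60, 8.31 and 8.53 in vector cells (3.35 ± 0.08). Tpm4 (2.51 ± 0.07), Csrp1 (3.70 ± 0.09), a LIM protein of the cytoskeleton, Zyx (3.36 ± 0.10), a focal adhesion protein, and Acta2 (3.34 ± 0.11), smooth muscle actin, also rose. Vim, the mesenchymal intermediate filament, was the one that fell (-0.43 ± 0.07), and Ezr (0.09 ± 0.08) and Actg2 (0.10 ± 0.13) did not pass. Of 13 fibroblast markers 2 rose and 3 fell, with a median of -0.10, 8 were below the array median in both groups, and their mean level was 4.30 to 4.37 in Pou5f1 RNAi arrays, against 4.37 to 4.46 in vector arrays. Thy1, a surface marker of fibroblasts, read 4.57, 4.41, 4.27 and 4.24 in Pou5f1 RNAi cells, against 5.20, 5.03, 5.25, 5.18 and 5.25 in vector cells.

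Calcium-binding and carbohydrate-binding proteins rose too. Of 20 S100, annexin and galectin genes 13 rose and 1 fell, with a median of 1.27. Lgals1, a galectin, read 13.22, 13.18, 13.40 and 13.07 in Pou5f1 RNAi cells, against 9.15, 9.25, 9.34, 9.36 and 9.46 in vector cells (3.91 ± 0.08), the groups separated by over 3 log2. Anxa5 (3.08 ± 0.08), Anxa4 (2.53 ± 0.13), S100a6 (2.46 ± 0.10), Lgals9 (2.25 ± 0.13), Anxa2 (2.05 ± 0.08) and Lgals3 (1.93 ± 0.11) were the next examples. Anxa8 fell (-0.47 ± 0.11), and S100a4 (-0.02 ± 0.09) and S100a10 (0.16 ± 0.07) did not pass.

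Basement membrane genes moved in both directions. In the list of matrix, integrin and protease genes, 20 of 29 rose and 6 fell. Col4a1, a collagen IV chain, read 10.92, 10.86, 11.02 and 10.90 in Pou5f1 RNAi cells, against 8.96, 9.10, 9.04, 8.64 and 8.85 in vector cells (2.01 ± 0.10), and its partner Col4a2 rose by 2.72 ± 0.10. Lama1, the laminin chain of the earliest basement membranes, went the other way, at 6.62, 6.76, 6.78 and 6.74 in Pou5f1 RNAi cells, against 8.21, 8.58, 8.38, 8.66 and 8.87 in vector cells (-1.81 ± 0.11). Lama5 rose (0.70 ± 0.09) and Lamc1 fell (-0.58 ± 0.09). The nidogens, which link laminin to collagen IV, moved in opposite directions, Nid1 by 1.60 ± 0.09 and Nid2 by -1.96 ± 0.09. The integrin chains Itga6 (1.70 ± 0.07), Itgav (1.60 ± 0.08), Itga3 (1.33 ± 0.09), Itgb5 (1.19 ± 0.08) and Itgb1 (1.14 ± 0.13) rose. Among proteases and inhibitors, Timp3 (1.90 ± 0.11) and the urokinase receptor Plaur (1.57 ± 0.10) rose, Mmp2 (-1.43 ± 0.09) and Timp1 (-0.88 ± 0.09) fell, and Mmp9, a protease of invading trophoblast, rose by 0.49 ± 0.10.

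Lysosomal genes rose in 13 of 24 cases and fell in 2. Psap, the precursor of activators of lipid hydrolysis, read 10.99, 11.06, 11.15 and 11.08 in Pou5f1 RNAi cells, against 8.91, 9.04, 9.09, 9.14 and 9.23 in vector cells (1.99 ± 0.10). The protease Ctsb (1.45 ± 0.11), its inhibitor Cstb (1.37 ± 0.08) and the membrane protein Lamp2 (1.09 ± 0.10) were the other members above 1 log2, and Ctsh fell (-0.58 ± 0.11).

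Transporters of the maternal-fetal exchange were mixed, 16 of 33 nutrient and lipid transport genes rising and 8 falling. Slc40a1, the iron exporter ferroportin, read 8.03, 8.03, 8.65 and 8.21 in Pou5f1 RNAi cells, against 5.18, 4.93, 5.04, 5.40 and 5.37 in vector cells (3.05 ± 0.16). Slc38a4, an imprinted amino acid transporter of placenta, read 11.72, 11.62, 11.82 and 11.63 in Pou5f1 RNAi cells, against 9.02, 9.23, 9.18, 9.45 and 9.48 in vector cells (2.43 ± 0.10). Fabp3 (2.33 ± 0.08), a fatty acid carrier, Scarb1 (1.51 ± 0.10), the HDL receptor, and Lpl (1.21 ± 0.11), lipoprotein lipase, rose, and the glucose transporters Slc2a1 and Slc2a3 rose by 0.74 ± 0.07 and 0.51 ± 0.08. The largest falls were Cubn (-3.56 ± 0.13), an endocytic receptor, Slc7a3 (-3.05 ± 0.08) and Slc7a7 (-2.31 ± 0.09), carriers of basic amino acids, and Apoe. Apoe read 7.99, 8.05, 7.90 and 8.07 in Pou5f1 RNAi cells, against 9.74, 9.92, 9.87, 10.18 and 10.31 in vector cells, so that it fell by 2.00 ± 0.11. Ion and water transport, on which blastocyst expansion depends, stayed near the background with 3 of 18 higher and 4 lower. Aqp3 (0.04 ± 0.10), Aqp9 (0.01 ± 0.12) and the sodium pump subunit Atp1b1 (0.17 ± 0.11) did not pass, and Fxyd6, a regulator of that pump, had the largest rise (0.89 ± 0.11).

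The 10 largest falls included transcription factors, a metabolic enzyme, a hormone precursor and an endocytic receptor. Aass, the enzyme that opens lysine breakdown, read 3.58, 4.13, 3.88 and 3.82 in Pou5f1 RNAi cells, against 8.23, 8.36, 8.34, 8.23 and 8.60 in vector cells, 22.6-fold lower. Otx2, the homeobox factor of epiblast and forebrain, read 4.51, 4.37, 4.38 and 4.04 in Pou5f1 RNAi cells, against 8.93, 9.04, 9.06, 8.33 and 8.59 in vector cells. Zic5, a zinc finger factor of the epiblast, read 4.17, 4.36, 4.15 and 4.42 in Pou5f1 RNAi cells, against 7.98, 7.61, 7.86, 7.67 and 7.84 in vector cells. All 3 genes fell below the array median on every Pou5f1 RNAi array.

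Gbx2, a homeobox factor induced by LIF, read 4.06, 3.84, 3.60 and 4.31 in Pou5f1 RNAi cells, against 7.34, 7.36, 7.59, 7.07 and 7.24 in vector cells. Nr0b1, the X-linked nuclear receptor Dax1 that binds Oct4, read 6.22, 6.19, 5.78 and 5.99 in Pou5f1 RNAi cells, against 9.23, 9.50, 9.51, 9.31 and 9.39 in vector cells. Socs2, an inhibitor of cytokine signalling, read 5.26, 5.00, 5.22 and 5.12 in Pou5f1 RNAi cells, against 8.70, 8.73, 8.84, 8.33 and 8.39 in vector cells. These 3 regulators were 10.2- to 10.9-fold lower after Pou5f1 RNAi.

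Trh, the precursor of thyrotropin-releasing hormone and a known ES cell transcript, read 6.93, 6.88, 6.58 and 6.89 in Pou5f1 RNAi cells, against 10.53, 10.51, 10.62, 10.33 and 10.31 in vector cells. Ina, a neuronal intermediate filament, read 4.58, 4.56, 4.86 and 4.70 in Pou5f1 RNAi cells, against 8.60, 8.69, 8.67, 8.52 and 8.63 in vector cells. Enox1, an oxidase of the cell surface, read 4.14, 3.90, 3.77 and 3.68 in Pou5f1 RNAi cells, against 7.65, 7.40, 7.58, 7.66 and 7.91 in vector cells. Cubn read 4.51, 4.77, 4.83 and 4.41 in Pou5f1 RNAi cells, against 7.98, 8.05, 8.08, 8.20 and 8.62 in vector cells. The rule that named these genes admits only genes whose arrays do not overlap, so the separation of their groups was set by the choice.

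Ranks 11 to 30 of the falls included germ-line genes beside signalling genes. Tdrd12 (-3.21 ± 0.10) and Morc1 (-3.20 ± 0.08) silence transposons in the mouse male germ line, and Hsf2bp (-2.89 ± 0.08) acts in meiotic recombination. Ifitm1 (-3.03 ± 0.09) and Ifitm3 (-2.86 ± 0.07) are membrane proteins known from early germ cells and from antiviral defence. Foxp1 (-3.04 ± 0.11), a forkhead factor with an ES cell isoform, fell on all 8 of its probe sets, and Pitpnc1 (-2.76 ± 0.08), a lipid transfer protein, on all 9. Fgf4 (-3.15 ± 0.10), Tdgf1 (-2.85 ± 0.09) and Lefty1 (-2.75 ± 0.10) are secreted or membrane-bound signals. Pla2g1b (-3.33 ± 0.11), Stmn2 (-3.19 ± 0.10), Hsd17b14 (-3.19 ± 0.10), Lrrc2 (-3.07 ± 0.14), Trim2 (-3.06 ± 0.15), Slc7a3, Mcf2 (-3.01 ± 0.12), Bnc2 (-2.90 ± 0.14), Srgn (-2.80 ± 0.08) and Enpp3 (-2.77 ± 0.08) complete the set.

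Pluripotency transcription factors fell in 21 of 25 cases and rose in 3, with a median change of -1.24. Klf4, a factor maintained by LIF, read 8.71, 8.78, 8.69 and 8.57 in Pou5f1 RNAi cells, against 10.32, 10.30, 10.38, 9.99 and 9.997 in vector cells (-1.51 ± 0.10). Esrrb, an orphan nuclear receptor, read 8.56, 8.46, 8.12 and 8.30 in Pou5f1 RNAi cells, against 9.48, 9.47, 8.97, 9.29 and 9.27 in vector cells (-0.94 ± 0.11). Mycn (-1.85 ± 0.07), Zfp42 (-1.79 ± 0.08), Klf2 (-1.60 ± 0.09), Zscan10 (-1.50 ± 0.09) and Utf1 (-1.35 ± 0.08) fell too, while Sall4 fell by 0.43 ± 0.08. Tfcp2l1 did not pass and overlapped, at 8.53, 8.54, 8.58 and 8.55 in Pou5f1 RNAi cells and 8.12, 8.42, 8.38, 8.55 and 8.56 in vector cells. Myc, in contrast to its relative Mycn, rose, reading 8.01, 7.95, 8.38 and 8.20 in Pou5f1 RNAi cells, against 6.50, 6.68, 6.79, 6.63 and 6.85 in vector cells (1.44 ± 0.10). Tcf7l1, a repressor in the Wnt pathway, and Tbx3 rose by 0.79 ± 0.11 and 0.77 ± 0.08.

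Other ES cell markers fell in 18 of 22 cases, with a median of -1.50. Dppa5a read 12.38, 12.39, 12.04 and 12.16 in Pou5f1 RNAi cells, against 13.34, 13.29, 13.37, 13.50 and 13.47 in vector cells (-1.15 ± 0.08). Eras (-2.48 ± 0.09), a Ras protein of ES cells, Tcl1 (-2.48 ± 0.11), an AKT cofactor, Ooep (-2.35 ± 0.10), L1td1 (-2.08 ± 0.08) and Dppa3 (-2.01 ± 0.09) fell more. Alpl, the alkaline phosphatase by which ES colonies are stained, did not pass (0.06 ± 0.10), nor did Dppa2 (0.20 ± 0.08). Cd9, a surface tetraspanin used as an ES marker, rose, at 11.49, 11.52, 11.71 and 11.54 in Pou5f1 RNAi cells, against 10.35, 10.32, 10.39, 10.55 and 10.54 in vector cells (1.14 ± 0.08).

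Epiblast genes fell in 13 of 19 cases and rose in 2. Besides Otx2, Zic5 and Enpp3 these were Etv5, Dnmt3a, the kinase gene Pim2 (-2.43 ± 0.07), the Wnt antagonist gene Sfrp2 (-2.07 ± 0.12) and the POU factor gene Pou3f1 (-1.23 ± 0.09). Fgf5, the standard marker of the primed epiblast, was low in both groups and did not pass, at 3.98, 3.98, 4.13 and 4.20 in Pou5f1 RNAi cells and 4.40, 4.49, 4.23, 4.09 and 4.04 in vector cells. Car4, a carbonic anhydrase, rose by 1.81 ± 0.09.

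**Figure D3:**
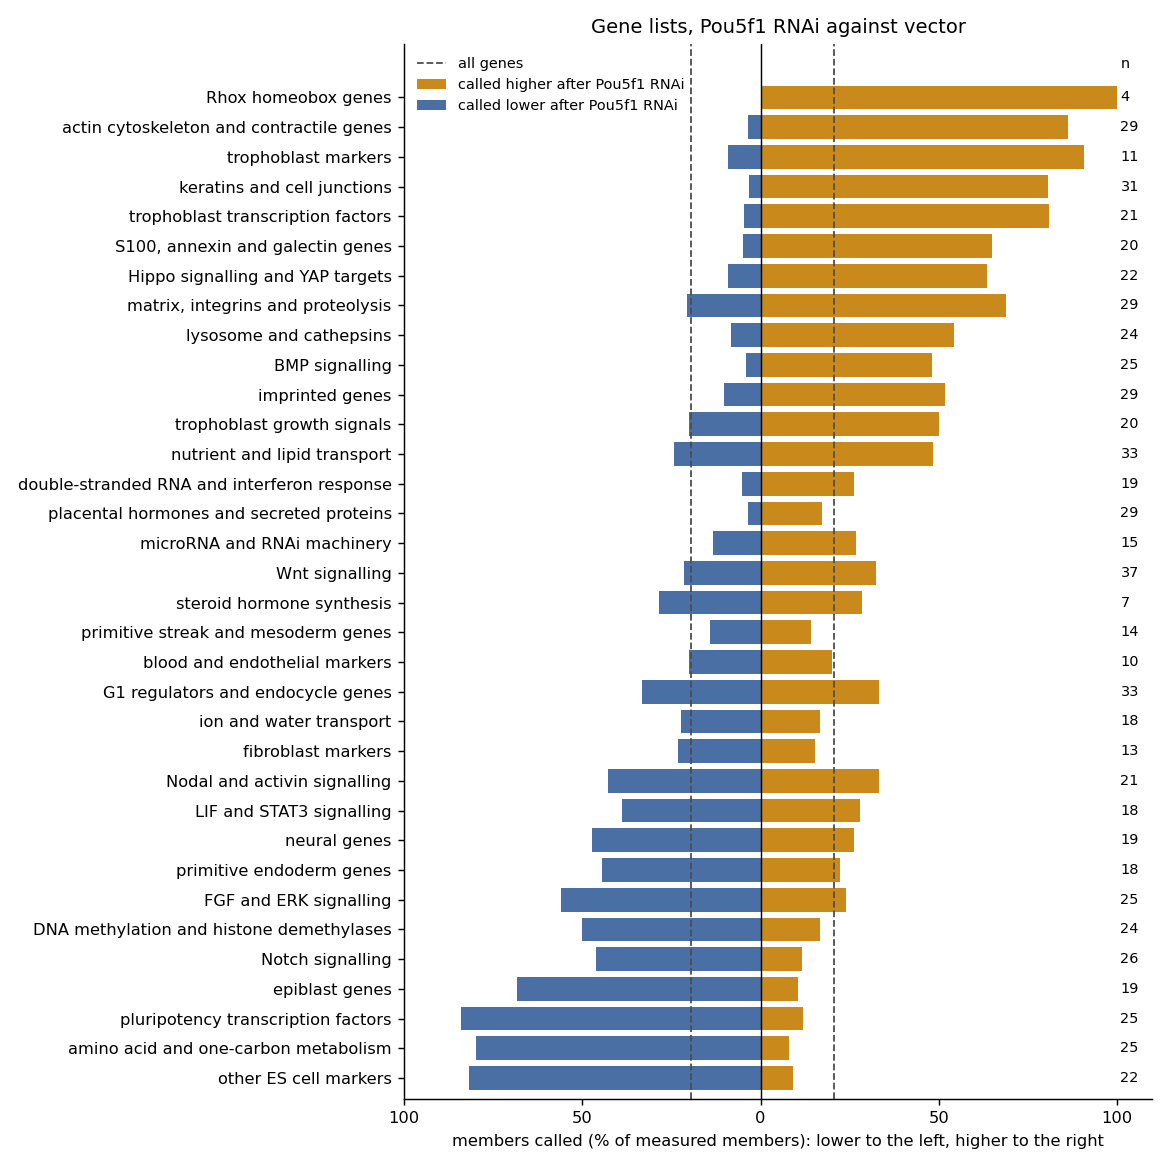
Share of the measured members of each of 34 gene lists called higher (to the right, orange) or lower (to the left, blue) after Pou5f1 RNAi, in percent (x axis), with the number measured at the right edge; dashed lines mark 20.6% higher and 19.5% lower over all genes. Trophoblast factors, keratins and junctions and the actin cytoskeleton reach far to the right of the dashed line, and ES cell markers, amino acid metabolism and pluripotency factors far to the left.

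Promoter sequences were examined for words that bear on these groups, using the 250 bases before and 50 bases after each annotated start from RefSeq (GRCm38.p6), available for 14368 of the genes tested, 191 of those that rose and 73 of those that fell by at least 2 log2. Each word was searched on both strands and any of a gene's windows counted. The octamer ATGCAAAT was found in 6.85% of the promoters of the genes that fell, 3.14% of those that rose and 1.68% of all. Its core ATGCAAA was found in 13.7%, 5.76% and 4.56%. The SOX word ACAATG was found in 16.4%, 7.85% and 10.9%. The core and the SOX word lay 1 base apart in 1 gene of the 14368, and that gene was Nanog, whose composite Oct4 and Sox2 site is well known. Among other words, the TEAD word GGAATG was found in 13.7% of the promoters of genes that fell, 21.5% of those that rose and 15.3% of all. The AP-1 word TGANTCA was found in 8.22%, 9.42% and 7.50%, which rests on 6 genes that fell and 18 that rose. The GATA word AGATAA was found in 9.59%, 7.85% and 9.53%. The AP-2 word GCCNNNGGC, which needs a GC-rich promoter, was found in 21.9%, 37.7% and 25.4%. Counts behind the octamer shares are small, 5 genes that fell (Pcyt1b, Pim2, Pipox, Sfrp2 and Srgn) and 6 that rose (Abtb2, Cdx2, Creb3, Gadd45g, Patj and Plet1). A word in a promoter is no sign of binding, and binding was not measured here.

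The promoters below are shown because they carry these words in genes discussed here, with the full octamer in capitals or, for Nanog, the adjoining octamer core and SOX word; matches to the core alone, such as 1 in Pim2, are left in lower case. Each runs from 250 bases before to 50 bases after the start, 5′ to 3′ along the gene.
Nanog, chr6:122707239-122707538, plus strand: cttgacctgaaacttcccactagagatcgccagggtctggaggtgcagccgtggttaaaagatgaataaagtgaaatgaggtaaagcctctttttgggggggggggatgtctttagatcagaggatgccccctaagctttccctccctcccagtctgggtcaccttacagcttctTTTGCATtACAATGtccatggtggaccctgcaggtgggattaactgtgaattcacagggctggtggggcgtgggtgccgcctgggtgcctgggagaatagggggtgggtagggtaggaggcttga
Pim2, chrX:7878056-7878355, plus strand: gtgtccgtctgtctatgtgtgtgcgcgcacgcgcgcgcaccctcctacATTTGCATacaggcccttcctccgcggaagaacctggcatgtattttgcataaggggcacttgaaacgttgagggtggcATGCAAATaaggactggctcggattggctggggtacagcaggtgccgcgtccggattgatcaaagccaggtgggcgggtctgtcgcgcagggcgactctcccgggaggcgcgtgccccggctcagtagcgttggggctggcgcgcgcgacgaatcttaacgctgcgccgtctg
Sfrp2, chr3:83766071-83766370, plus strand: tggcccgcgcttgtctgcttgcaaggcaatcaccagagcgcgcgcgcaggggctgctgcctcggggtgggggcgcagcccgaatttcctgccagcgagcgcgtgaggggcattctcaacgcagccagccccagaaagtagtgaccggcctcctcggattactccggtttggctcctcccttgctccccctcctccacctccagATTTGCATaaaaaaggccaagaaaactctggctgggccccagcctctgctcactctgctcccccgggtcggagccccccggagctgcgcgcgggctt
Cdx2, chr5:147307200-147307499, minus strand: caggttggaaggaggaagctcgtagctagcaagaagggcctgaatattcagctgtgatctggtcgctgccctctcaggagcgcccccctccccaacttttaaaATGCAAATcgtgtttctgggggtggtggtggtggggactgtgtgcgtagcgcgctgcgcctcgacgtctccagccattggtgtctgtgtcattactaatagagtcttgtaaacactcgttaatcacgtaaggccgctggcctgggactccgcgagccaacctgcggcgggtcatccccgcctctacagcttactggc
Plet1, chr9:50494275-50494574, plus strand: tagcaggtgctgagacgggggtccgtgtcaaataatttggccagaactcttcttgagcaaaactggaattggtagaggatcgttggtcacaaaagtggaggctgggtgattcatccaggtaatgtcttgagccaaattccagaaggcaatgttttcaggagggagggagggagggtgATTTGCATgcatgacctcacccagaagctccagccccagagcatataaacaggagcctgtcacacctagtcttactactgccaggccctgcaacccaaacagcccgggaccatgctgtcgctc
In Nanog the composite word begins 75 bases before the start shown and 151 bases before a further annotated start. In Pim2 the octamer occurs at 2 places, the outer one beginning 202 bases before the start, and in Sfrp2 at 47 bases before it; both genes fell. In Cdx2 and Plet1, which rose, the octamer begins 147 and 73 bases before the start, so the word is present in genes that moved in either direction.

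Of 25 measured genes of FGF and ERK signalling 14 fell and 6 rose, with a median of -0.70. Among ligands, Fgf4 (-3.12 ± 0.11 on its probe set of highest mean), a known joint target of Oct4 and Sox2, Fgf17 (-1.87 ± 0.13) and Fgf15 (-1.64 ± 0.11) fell, and Fgf5 and Fgf8 did not pass. Among receptors, Fgfr2 and Fgfr1 (1.21 ± 0.11) rose and Fgfr3 (-0.06 ± 0.08) and Fgfr4 (0.01 ± 0.08) did not pass. Of the transcription factors that ERK kinases induce, Egr1, Etv5 and Etv4 (-1.64 ± 0.10) fell and the AP-1 subunits Fos (1.59 ± 0.11) and Fosl1 (0.41 ± 0.11) rose. Egr1, an immediate early factor, read 5.96, 6.04, 6.07 and 6.14 in Pou5f1 RNAi cells, against 8.74, 8.86, 8.89, 8.72 and 8.76 in vector cells (-2.74 ± 0.08). Etv5, an ETS factor and classic FGF target, read 8.06, 8.12, 8.10 and 8.04 in Pou5f1 RNAi cells, against 10.72, 10.77, 10.74, 10.85 and 10.80 in vector cells (-2.70 ± 0.07). In both genes the arrays of a group lay close together.

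Most of the feedback inhibitors that FGF induces fell as well. Spry4 read 6.53, 6.75, 6.52 and 6.02 in Pou5f1 RNAi cells, against 8.9995, 8.70, 8.87, 8.83 and 8.73 in vector cells (-2.37 ± 0.12). Dusp6, the ERK phosphatase, read 7.27, 7.65, 7.57 and 7.48 in Pou5f1 RNAi cells, against 8.61, 8.52, 8.67, 8.67 and 8.79 in vector cells (-1.16 ± 0.09). Spry2 (-1.58 ± 0.08), Il17rd (-1.05 ± 0.11), Spred1 (-0.95 ± 0.08) and Spred2 (-0.92 ± 0.09) followed. Dusp5 (1.11 ± 0.09), another ERK phosphatase, rose and Dusp4 (0.29 ± 0.12) did not pass. Fgfbp1, a carrier that releases FGFs from matrix, rose by 2.71 ± 0.10.

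**Figure D4:**
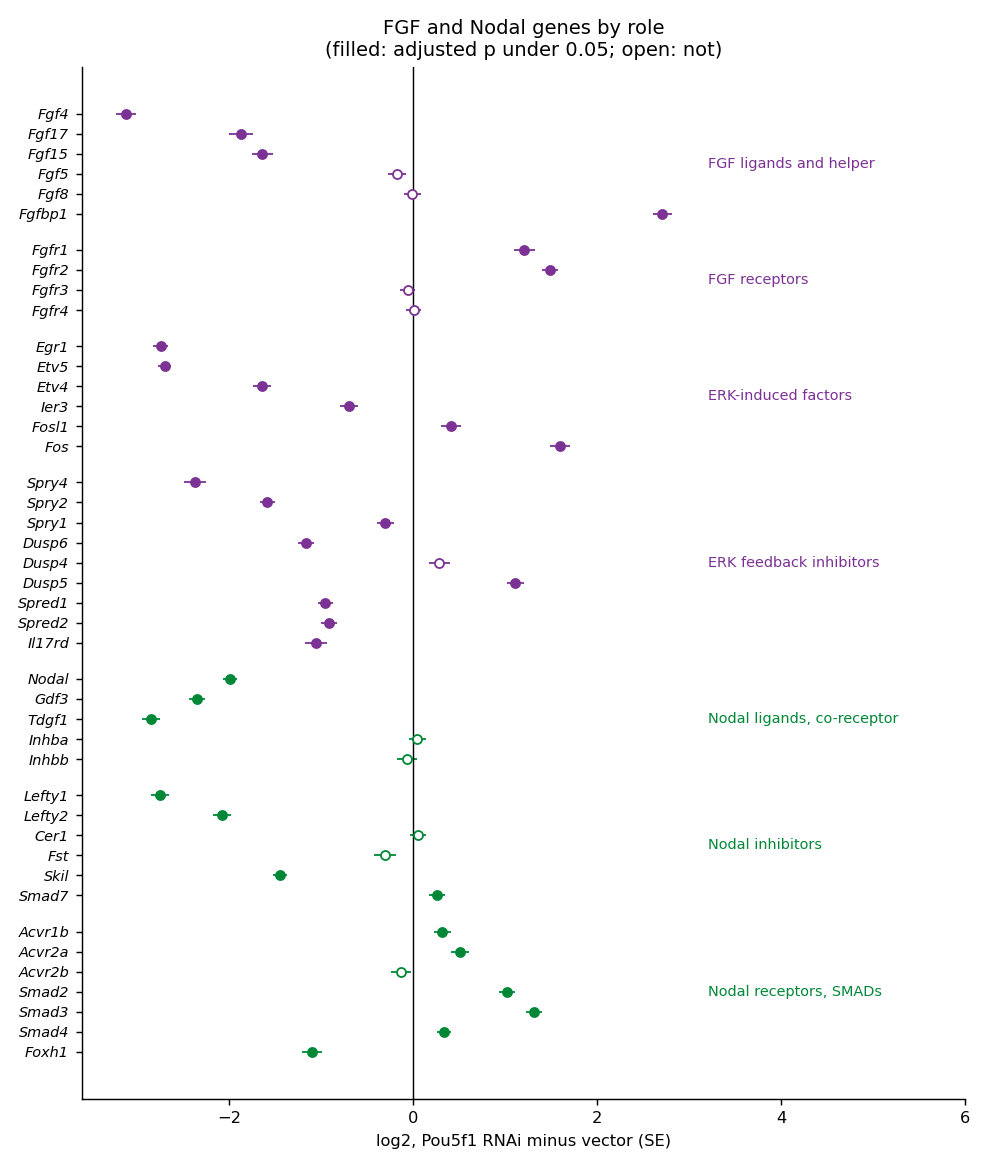
Change after Pou5f1 RNAi (x axis, log2 minus vector ± SE) of FGF genes (purple) and Nodal genes (green) by role; filled points passed at adjusted p under 0.05. Fgf4, Nodal, Gdf3, Tdgf1 and both Lefty genes lie at -3.12 to -1.99, whereas Fgfr1, Fgfr2, Smad2 and Smad3 lie at 1.02 to 1.49.

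Nodal ligands and their co-receptor fell too. Nodal is a TGF-β family ligand that signals through activin receptors and SMAD2 and SMAD3 with the co-receptor Cripto, the product of Tdgf1. Nodal read 7.54, 7.35, 7.30 and 7.44 in Pou5f1 RNAi cells, against 9.30, 9.42, 9.41, 9.38 and 9.46 in vector cells (-1.99 ± 0.08). Gdf3, a related ligand, read 6.53, 6.49, 6.51 and 6.60 in Pou5f1 RNAi cells, against 8.65, 8.88, 8.86, 9.01 and 8.99 in vector cells (-2.35 ± 0.09). Tdgf1, the secreted inhibitors Lefty1 and Lefty2 (-2.07 ± 0.09), which Nodal induces, and the DNA-binding cofactor Foxh1 (-1.10 ± 0.11) fell. No receptor or SMAD gene fell. Smad3 read 7.36, 7.67, 7.64 and 7.62 in Pou5f1 RNAi cells, against 6.34, 6.06, 6.31, 6.32 and 6.24 in vector cells (1.32 ± 0.09), and Smad2 (1.02 ± 0.09), Smad4 (0.34 ± 0.07), Acvr2a (0.51 ± 0.10) and Acvr1b (0.32 ± 0.09) rose. The limma call of Acvr1b is lost without Pou5f1 RNAi replicate 3 (adjusted p = 0.0553). In all, 9 of 21 genes fell and 7 rose.

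Of 25 genes of BMP signalling 12 rose and 1 fell, Bmp4 itself, with a median of 0.12. The other 12 were not called, and 7 of the 25 lay below the array median in both groups. Id3, a helix-loop-helix inhibitor that BMP induces, read 9.30, 9.25, 9.57 and 9.35 in Pou5f1 RNAi cells, against 7.23, 7.32, 7.27, 7.27 and 7.62 in vector cells (2.03 ± 0.09). Msx2, another BMP target, read 8.21, 8.20, 8.58 and 8.28 in Pou5f1 RNAi cells, against 5.13, 4.58, 5.03, 5.22 and 5.09 in vector cells. Id2 (1.45 ± 0.10), the receptors Bmpr2 (1.17 ± 0.11), Acvr1 (1.07 ± 0.12) and Bmpr1a (0.58 ± 0.07) and the inhibitor Smad6 (0.80 ± 0.10) rose, while Id1 did not pass (-0.14 ± 0.09).

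LIF signalling, which keeps mouse ES cells undifferentiated through STAT3, moved in both directions, with 7 of 18 genes lower and 5 higher. Lifr read 6.85, 6.82, 6.74 and 6.75 in Pou5f1 RNAi cells, against 9.003, 8.73, 8.88, 8.98 and 8.94 in vector cells. The LIF targets Socs3 (-1.30 ± 0.08), Socs2 and Klf4 fell. Lif itself (1.30 ± 0.12) and the kinases Jak1 (1.84 ± 0.10) and Jak2 (1.01 ± 0.09) rose. The shared receptor chain Il6st (0.09 ± 0.10) did not pass, and Stat3 did not pass either (-0.18 ± 0.10), although it was called without vector replicate 4 (-0.27, adjusted p = 0.0307).

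Wnt genes were mixed, 12 of 37 higher and 8 lower. Dkk1, a secreted Wnt antagonist, read 7.90, 7.91, 8.13 and 7.88 in Pou5f1 RNAi cells, against 4.93, 4.78, 4.85, 4.89 and 4.81 in vector cells (3.10 ± 0.09). Besides Wnt7b, the ligands Wnt9a (1.43 ± 0.11) and Wnt4 (1.14 ± 0.09), the Wnt secretion factor Wls (1.93 ± 0.12) and the receptor Fzd6 (1.27 ± 0.11) rose. Sfrp2, Fzd5, the ligand-modifying enzyme Porcn (-1.03 ± 0.13) and the effector Lef1 (-0.99 ± 0.09) fell. Axin2, a feedback target of the pathway, rose by 0.48 ± 0.10.

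Notch genes fell in 12 of 26 cases, all but Jag1 by less than 1 log2, and rose in 3. Jag1, a Notch ligand, had the largest change, at 4.32, 5.08, 5.23 and 4.59 in Pou5f1 RNAi cells, against 6.82, 7.01, 7.13, 6.84 and 7.18 in vector cells (-2.19 ± 0.15). Dll1 (-0.90 ± 0.09), another ligand, the modifying enzyme Mfng (-0.94 ± 0.10), and the receptors Notch4 (-0.82 ± 0.11) and Notch1 (-0.63 ± 0.12) followed, whereas Notch2 (0.60 ± 0.09) and the inhibitor Numb (0.66 ± 0.09) rose.

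The Hippo pathway restrains the coactivators YAP and TAZ, which with TEAD4 switch on Cdx2 in outer cells of the embryo. In its list 14 of 22 genes rose and 2 fell. The gene of TAZ, Wwtr1 (1.73 ± 0.09), rose more than Yap1 (0.63 ± 0.08), and the angiomotin genes Amotl2 (2.23 ± 0.08), Amot (1.23 ± 0.10) and Amotl1 (0.98 ± 0.09), whose products bind YAP, rose with them. Of the known YAP targets, Ccn1 read 8.66, 8.67, 8.91 and 8.70 in Pou5f1 RNAi cells, against 5.90, 6.12, 6.15, 5.77 and 6.03 in vector cells (2.74 ± 0.10). Ccn2, its relative, read 7.85, 7.95, 8.03 and 7.95 in Pou5f1 RNAi cells and 7.87, 8.11, 8.12, 7.94 and 8.01 in vector cells (-0.07 ± 0.07), with the groups overlapping, and Ankrd1 (0.27 ± 0.10) did not pass.

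Imprinted genes, many of which control placental growth, rose in 15 of 29 measured cases and fell in 3. The list also names H19, which was not analysed here because its probe set carries more than 1 gene name. Igf2, Peg10, Cdkn1c, Ascl2, Sgce (2.96 ± 0.09) and Phlda2 (1.97 ± 0.11) were among those that rose. Peg3 read 10.65, 10.58, 11.01 and 10.72 in Pou5f1 RNAi cells, against 8.39, 8.51, 8.60, 8.37 and 8.56 in vector cells (2.25 ± 0.09). They include genes of both parental origins, since Igf2, Peg3 and Peg10 are known to be active on the paternal copy and Cdkn1c, Ascl2 and Phlda2 on the maternal one. Meg3, a noncoding RNA of the maternal copy, read 8.42, 8.34, 8.12 and 8.29 in Pou5f1 RNAi cells, against 9.77, 9.79, 9.89, 9.90 and 9.91 in vector cells (-1.56 ± 0.08). Kcnq1ot1 (0.13 ± 0.10) and Dlk1 (-0.16 ± 0.11) did not pass. The arrays do not tell the parental copies apart.

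Of 25 genes of amino acid and one-carbon metabolism 20 fell and 2 rose, with a median of -0.77. Cth, which makes cysteine, read 7.25, 7.31, 7.41 and 7.34 in Pou5f1 RNAi cells, against 8.65, 8.81, 8.92, 8.92 and 9.06 in vector cells (-1.55 ± 0.08). The serine pathway was lower at each measured step. Phgdh, its entry enzyme, read 8.86, 8.80, 9.04 and 8.91 in Pou5f1 RNAi cells, against 9.64, 9.75, 9.78, 9.54 and 9.65 in vector cells, and Psat1 fell by 1.00 ± 0.12 and Psph by 1.03 ± 0.09. The folate enzymes Mthfd2 (-1.22 ± 0.12), Shmt1 (-1.12 ± 0.08) and Shmt2 (-0.98 ± 0.10) and the glycine cleavage genes Gcsh (-0.84 ± 0.07) and Gldc (-0.63 ± 0.11) fell. Apart from Aass, no member changed by as much as 2 log2, and the urea cycle enzyme Asl rose (0.98 ± 0.11).

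Cell cycle genes were split, 11 of 33 lower and 11 higher. Ccnd1, a G1 cyclin, read 6.24, 6.33, 6.38 and 6.10 in Pou5f1 RNAi cells, against 8.36, 8.41, 8.36, 8.61 and 8.63 in vector cells (-2.21 ± 0.10). Cdkn1a, the inhibitor p21, read 9.45, 9.31, 9.34 and 9.42 in Pou5f1 RNAi cells, against 7.79, 8.02, 7.88, 7.63 and 7.90 in vector cells (1.54 ± 0.11). Together with Cdkn1c, the inhibitor p57 that trophoblast cells need to leave mitosis for endoreduplication, Cdkn2b (0.84 ± 0.13) and Cdkn1b (0.51 ± 0.11) rose. The checkpoint kinase Chek1 (-1.06 ± 0.07) and Fbxo5 (-1.38 ± 0.21), an inhibitor of the anaphase-promoting complex, fell, and Ccne2 (1.02 ± 0.09) and E2f7 (0.98 ± 0.10) rose. The mitotic genes Cdk1 (0.16 ± 0.08) and Ccna2 (-0.14 ± 0.07) did not pass.

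Enzymes of DNA methylation and histone demethylation fell in 12 of 24 cases and rose in 4. Tet1, a methylcytosine oxidase, read 7.91, 8.01, 8.01 and 7.91 in Pou5f1 RNAi cells, against 10.04, 10.05, 10.15, 10.41 and 10.26 in vector cells (-2.22 ± 0.08), and Tet2 fell by 1.54 ± 0.10. The de novo methyltransferases differed. Dnmt3a read 6.51, 6.47, 6.37 and 6.48 in Pou5f1 RNAi cells, against 8.98, 9.16, 9.24, 8.58 and 8.71 in vector cells (-2.48 ± 0.12), and their cofactor Dnmt3l fell by 1.76 ± 0.07. Dnmt3b read 10.39, 10.51, 10.58 and 10.52 in Pou5f1 RNAi cells and 10.55, 10.43, 10.55, 10.76 and 10.72 in vector cells and did not pass (-0.10 ± 0.08), while the maintenance enzyme Dnmt1 rose by 0.60 ± 0.10. Kdm4c (-1.76 ± 0.07) and Kdm3a (-1.27 ± 0.08), demethylases of histone H3 that Oct4 is known to drive, fell, and Kdm6b rose (1.35 ± 0.10).

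Genes that respond to long double-stranded RNA or interferon were read as a check on the RNAi constructs. Of 19 measured, 5 rose, a share near the background, and 1 fell, none by 1 log2, and 10 lay below the array median in both groups. The rises were Rsad2 (0.67 ± 0.09), Cxcl10 (0.66 ± 0.11), Oasl2 (0.52 ± 0.10), Ifih1 (0.48 ± 0.10) and Eif2ak2 (0.29 ± 0.08), and Ifit1 (-0.05 ± 0.09) and Mx1 (0.08 ± 0.08) did not pass. The limma call of Eif2ak2 is lost without Pou5f1 RNAi replicate 3 (adjusted p = 0.0590). The control is the parental vector, so effects of an RNAi construct as such cannot be told apart from those of Pou5f1 loss within this comparison. Of 15 genes of the microRNA and RNAi machinery, 4 rose and 2 fell. Dgcr8, the partner of Drosha, read 9.84, 9.68, 9.86 and 9.95 in Pou5f1 RNAi cells, against 8.29, 8.53, 8.37, 8.63 and 8.68 in vector cells (1.33 ± 0.09), Ago2 rose by 0.81 ± 0.07, and Dicer1 (-0.04 ± 0.08) and Drosha (-0.02 ± 0.08) did not pass. Lin28a, which blocks let-7 maturation, fell by 1.06 ± 0.10.

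Markers of other lineages gave no group rise. Among primitive endoderm genes 8 of 18 fell and 4 rose. Sox17 (-1.27 ± 0.15), Dab2 (-1.53 ± 0.08), Pdgfra (-0.86 ± 0.10) and Gata4 (-0.53 ± 0.10) fell, and the 4 that rose were Rhou (2.95 ± 0.09), Col4a1, Pth1r (1.14 ± 0.11), the receptor for parathyroid hormone-related protein, and Fxyd3 (0.42 ± 0.10). Gata6, a key endoderm factor, read 6.15, 6.15, 6.24 and 6.34 in Pou5f1 RNAi cells and 6.61, 6.58, 6.73, 6.46 and 6.36 in vector cells, and did not pass in the fit of all 14 arrays (-0.33 ± 0.14, adjusted p = 0.0763) but did with only the 9 arrays compared (adjusted p = 0.00824). Primitive streak and mesoderm genes had 2 of 14 higher, Eomes and Snai1 (1.22 ± 0.15), and 2 lower, with Mixl1 (-0.11 ± 0.09), Gsc (-0.07 ± 0.10) and Mesp1 (-0.06 ± 0.09) not passing. Neural genes had 9 of 19 lower and 5 higher, with Neurod1 (-2.71 ± 0.13), Gap43 (-1.94 ± 0.12) and Pax6 (-1.30 ± 0.09) among the falls and Irx3 (3.65 ± 0.09), an Iroquois homeobox factor, the largest rise. Blood and endothelial markers had 2 of 10 higher and 2 lower. Tek (-1.51 ± 0.14) and Pecam1 (-1.53 ± 0.13), the second of which ES cells also express, fell, and Ptprc (-0.09 ± 0.09), the leukocyte marker, stayed below the array median.

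A direct contrast with the 5 Nanog RNAi arrays tested which levels differed between Pou5f1 RNAi cells and cells with RNAi against another factor of the network. By genes, 18.8% were higher and 18.6% lower in Pou5f1 RNAi cells than in Nanog RNAi cells. Pou5f1 was 2.29 ± 0.10 lower than in Nanog RNAi cells, where its mean was 11.32 ± 0.16 (SD, n = 5), and Sox2 was 1.40 ± 0.08 lower. Nanog was 0.41 ± 0.09 higher in Pou5f1 RNAi cells than in the cells where it was itself targeted. In those Nanog RNAi cells its mean was 9.29, against 11.09 in vector cells, so Nanog was lowered only in part. The depth of each knockdown and the factor targeted cannot be told apart in this contrast. Of the 21 trophoblast factors 16 were higher and 0 lower than in Nanog RNAi cells, Cdx2 by 1.74 ± 0.11 and Gata3 by 1.37 ± 0.19. Likewise 23 of 31 keratin and junction genes and 24 of 29 actin genes were higher, and 18 of 25 pluripotency factors and 14 of 25 FGF genes were lower. Among the 30 largest rises over vector, the difference from Nanog RNAi cells ran from 1.74 (Vgll3) to 5.72 (Rhox6), and both contrasts share the Pou5f1 RNAi arrays.

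Other changes were not distinguished from those in Nanog RNAi cells. S100a6 had means of 9.66 in Pou5f1 RNAi cells, 9.67 in Nanog RNAi cells and 7.20 in vector cells, and the first pair differed by -0.01 ± 0.10 (limma adjusted p = 0.979). Id2, at -0.00 ± 0.10, Id3, at -0.11 ± 0.09, the p53 target Perp, at 0.15 ± 0.09, and Fzd5, at -0.06 ± 0.08, differed by less than 2 standard errors too. Eomes differed by 0.04 ± 0.10, so its small rise over vector was not shown to be larger than in Nanog RNAi cells. Some members were further from vector in Nanog RNAi cells. Fgfbp1 had means of 8.17 in Pou5f1 RNAi cells, 9.24 in Nanog RNAi cells and 5.46 in vector cells, and the difference between the knockdowns was -1.07 ± 0.10. Ier3, an early response gene, was 1.02 ± 0.10 higher in Pou5f1 RNAi than in Nanog RNAi cells and lower than in vector cells in both.

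The two-colour arrays offer the same genes in E14 cells that were made to differentiate by chemicals and share no RNA with the RNAi arrays. The chemicals were retinoic acid (RA, 0.1 µM), hexamethylene bisacetamide (HMBA, 3 mM) and dimethyl sulfoxide (DMSO, 1%). Each treatment has 2 arrays of opposite dye for days 2, 4 and 6, which give the log ratio of treated to untreated cells. Since the base of these logarithms is unknown here, only signs were counted. On the 6 RA arrays Pou5f1 was below 0 on every one, on the DMSO arrays on 4 and on the HMBA arrays on 5.

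Of the 30 largest rises after Pou5f1 RNAi, 25 had values on all 6 RA arrays and 18 of these were above 0 on all 6, against a background of 14.7% of genes. With HMBA it was 17 of 27, against 17.3%, and with DMSO 4 of 19, against 12.0%. Krt8, Vgll3 and Rhob were above 0 on all 18 arrays. Rhox9 was above 0 on all 6 RA arrays and below 0 on all 6 DMSO arrays. Igf2 and Krt18 were above 0 on 1 of 6 RA arrays each, despite rises of 6.32 ± 0.09 and 5.90 ± 0.11 after Pou5f1 RNAi, and Pmp22 was above 0 on 4 of 6. Each gene was read from 1 two-colour probe, the one with the most values, and other two-colour probes of a gene were not examined. Whether the probes for a gene on both platforms measure the same transcripts was not tested.

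Of the 30 largest falls, 21 of 27 were below 0 on all 6 RA arrays, against a background of 10.2%, 13 of 22 on all DMSO arrays, against 9.92%, and 21 of 26 on all HMBA arrays, against 14.4%. Aass, Trh, Morc1, Tdgf1 and Slc7a3 were among those below 0 on all 18 arrays. Lefty1 and Enpp3 were above 0 on 3 of 6 RA arrays. Among the list members, Cdx2 was above 0 on 3 of 6 RA arrays and 2 of 6 HMBA arrays, whereas Gata3 was above 0 on all 6 of both. Jag1, which fell by 2.19 ± 0.15 after Pou5f1 RNAi, was above 0 on every two-colour array that gave it a value, 6 with RA, 5 with DMSO and 6 with HMBA. Dnmt3b, which did not pass after Pou5f1 RNAi, was below 0 on all 6 RA arrays.

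**Figure D5:**
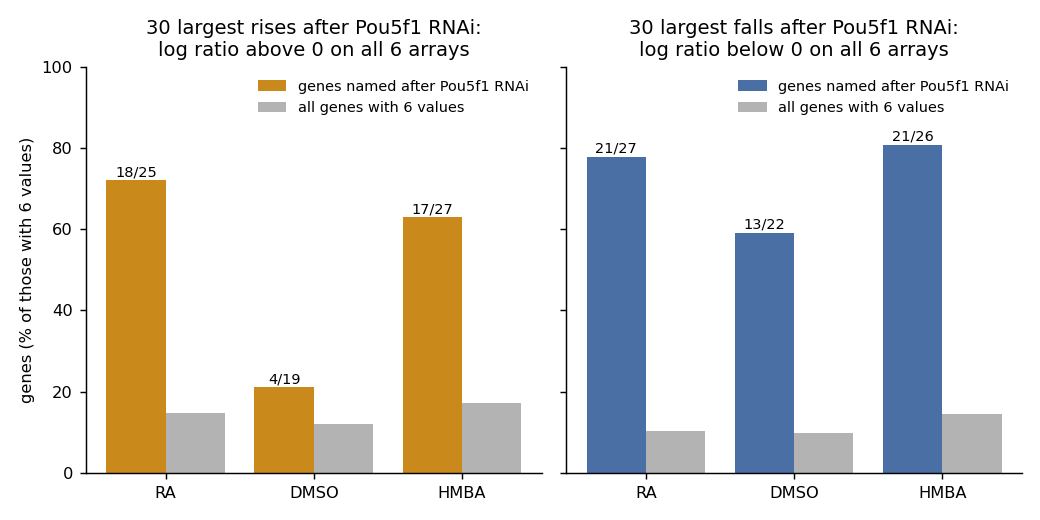
Percent of genes (y axis) with a log ratio above 0 on all 6 arrays of a treatment for the 30 largest rises after Pou5f1 RNAi (left, orange) and below 0 on all 6 for the 30 largest falls (right, blue), beside all genes with 6 values (grey); counts over bars are genes of those with 6 values. RA and HMBA bars stand well above grey in both panels, and the DMSO bar of the rises, 4 of 19, stands closest to it.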

How the data were processed

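The RNAi arrays (Affymetrix GeneChips) were deposited as log2 values made by the authors with RMA, per the submitters' processing notes; the version used is not stated. The two-colour log ratios were deposited as log2 or other log ratios of sample over reference, per the labels, with the base not stated, and only their signs were used. Of 45101 probe sets 64 control probe sets were left out; 34945 of the rest carried 1 gene name, 932 several and 9160 none, from the platform annotation. Depth does not apply to arrays; their number limits precision.

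Groups came from the titles. All 14 RNAi arrays (4 Pou5f1 RNAi, 5 Nanog RNAi, 5 vector) entered 1 linear model of 3 group means (limma 3.58.1, functions lmFit and eBayes; R 4.3.3), with no block, two-sided tests and Benjamini-Hochberg adjustment over 45037 probe sets. The fit was tested on simulated data.

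Named genes are Pou5f1, Nanog and Sox2, the 30 largest called rises and 30 largest falls whose arrays do not overlap (most changed probe set), and members of 34 gene lists (probe set of highest mean), of which those without a probe set of a single gene name were not analysed. Genes under both rules, such as Fgf4, may show 2 values. Up to 8 members per list and direction were to be named in the order of their adjusted p, and members named outside that order were chosen after their values were seen. The members, lists and tests were chosen with earlier results of these data known, and lists share genes. Genes shown array by array, the promoter words and the chromosome counts were chosen after values had been seen. Figures were drawn with matplotlib 3.10.9.

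Alternatives were a fit of only the groups compared, the replicate number as a block, a filter on a mean of 6, median centring, quantile normalization, an intensity trend with robust hyperparameters, array weights, a change of at least 1 log2, the probe set of smallest p and leaving out each array.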

Additional observations from a re-analysis of the deposited data

Results flagged for a closer look

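In 12 of the 238 groups of arrays tested, 2 for each of 119 genes (the 60 with the largest changes and the genes given array by array), 1 array stood apart from the rest of its group by more than the usual critical value of Dixon's ratio, the gap to the nearest array divided by the range of the group. Chance flags about 1 in 20 groups. Pou5f1 RNAi replicate 3 was the highest of its group for Krt8 (ratio 0.8294), Plac1 (0.858), Ccn1 (0.852) and Dkk1 (0.879) and the lowest for Trh (0.854). Pou5f1 RNAi replicate 4 was the lowest for Lefty1, at 6.14 with the next array at 6.65 (0.955), and the highest for Tdrd12 (0.866). Pou5f1 RNAi replicate 2 was the highest for Mcf2 (0.846). Among vector arrays, replicate 2 was the lowest for Krt7 (0.894), replicate 4 the lowest for Sbsn (0.744), replicate 1 the highest for Acta1 (0.787) and replicate 5 the highest for Id3 (0.776). In none of these 12 cases did the Pou5f1 RNAi and vector arrays of the gene overlap. For all but Ccn1, Dkk1 and Id3 this was set in advance, since the largest changes were named only among genes without overlap.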

How the results depend on the processing

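Results were recomputed under 23 alternatives, 14 of which left out 1 array. With a change of at least 1 log2 required, 1711 probe sets were higher and 976 lower in Pou5f1 RNAi than in vector arrays, against 7228 and 7012 without it, and 1368 were higher and 1014 lower than in Nanog RNAi arrays, against 6740 and 6542. With only probe sets of a mean of at least 6, 4699 were higher and 4675 lower than in vector arrays. Under the same filter 4284 were higher and 4644 lower than in Nanog RNAi arrays. Fewer probe sets were tested under this filter and their number is not given here, so the shares called cannot be compared. Leaving out 1 array at a time gave 6433 to 7452 higher and 6196 to 7312 lower against vector, 5947 to 6917 higher and 5866 to 6719 lower against Nanog RNAi, and a Pou5f1 change of -2.44 to -2.28. Across probe sets, same-numbered Pou5f1 RNAi and vector arrays deviated with correlations of 0.20, 0.067, 0.0011 and -0.13 for replicates 1 to 4, and 1 of 4 Pou5f1 RNAi arrays correlated best with the vector array of its own number. For Nanog RNAi and vector arrays they were 0.17, 0.20, 0.089, 0.44 and 0.39 (4 of 5), and for Pou5f1 RNAi and Nanog RNAi arrays 0.056, 0.011, -0.25 and -0.020 (0 of 4). Since no pair of groups had every correlation over 0.1, the numbers were not taken as pairs. The fit with the replicate number as a block called 7816 higher and 8207 lower, 13952 of them the same way as without it, with a Pou5f1 change of -2.35. Against Nanog RNAi it called 7328 higher and 6963 lower. List counts were recomputed 1428 times, apart from the filter on a mean of 6 and the change of at least 1 log2. Of these, 1361 stayed equal or close to the main fit. The probe set of smallest p was used for list counts only and not for the named genes. Of 6875 values for 331 genes named in the text besides Pou5f1, 6800 kept their direction and their side of the threshold. Called genes lost their call in 6, which are Tpbpa without vector replicate 2 or Pou5f1 RNAi replicate 2, 3 or 4 and Acvr1b and Eif2ak2 without Pou5f1 RNAi replicate 3, and 32 values of 13 genes that had not passed did so. Of these genes, Gata6, Ankrd1, Dusp4, Dppa2, Igf2r and S100a10 passed under more than 1 alternative. Stat3, Ovol2, Tfeb, Epcam, Atp1b1, Id1 and Cdk1 passed under 1 each. The cause of these losses and gains was not tested. The 37 values that changed direction belong to 12 genes that had not passed and lie close to 0. With quantile normalization these were Aqp3 (-0.0564), S100a4 (0.0197), Alpl (-0.0375), Fgfr4 (-0.061), Il6st (-0.007), Drosha (0.0029) and Fgf8 (0.0086), with median centring Cdh3 (0.0034), S100a4 (0.0022) and Fgf8 (0.0108), with array weights Aqp9 (-0.0238), Fgfr4 (-0.0038) and Fgf8 (0.0045), and with the replicate block Aqp9 (-0.0484), Fgfr4 (-0.0165), Drosha (0.0084) and Fgf8 (0.0262). Leaving out 1 array gave -0.03 to 0.0667 for Ocln, -0.062 to 0.044 for Cdh3, -0.0858 to 0.0855 for Aqp9, -0.0664 to 0.0421 for S100a4, -0.1082 to 0.0146 for Fgfr3, -0.0074 to 0.0239 for Fgfr4, -0.0844 to 0.0356 for Fgf8, -0.0762 to 0.0203 for Dicer1 and -0.0608 to 0.0002 for Drosha. Over the 21 refits the median change of all probe sets moved by at most 0.0246 log2. Signals near the array medians limit what can be said of low genes.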
